A study of Mus musculus with 6 samples.

Results

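The 10 genes described here set the shape and the amount of mitochondria, and RNA sequencing gave their messenger RNA levels in MC3T3-E1 cells. MC3T3-E1 is an osteoblast-like line from mouse, widely used to study bone-forming cells. The genes were chosen by name from the deposited gene table, and each of the 10 names matched 1 of its 54433 rows. The genes are Mfn1, Mfn2 and Opa1 for fusion, Dnm1l, Fis1 and Mff for fission, and Ppargc1a, Ppargc1b, Tfam and Nrf1 for biogenesis. The series holds 6 libraries of the same line. The 3 WT libraries came from wildtype cells labelled as controls and kept in DMEM medium. The 3 FR libraries came from cells labelled 30ppm F- resistant, whose treatment is given as a 30 ppm F- gradient, while the protocol speaks of a 10 ppm F- gradient during adaptation. Fluoride resistance and fluoride exposure therefore cannot be told apart, and the protocol mentions clones without saying how many the FR cells came from. Nothing in the labels names separate cultures for the 3 libraries of a group, so p-values reflect only the spread among libraries, which may be technical. The study's question was which genes differ in cells that have adapted to fluoride.

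Mitochondria continually join and divide, and the balance of the processes sets whether they form a network or separate fragments. The mitofusins Mfn1 and Mfn2 join outer membranes and Opa1 joins inner membranes, while the dynamin-like GTPase encoded by Dnm1l is recruited by outer-membrane receptors such as Mff to cut the organelle. New mitochondrial content depends on nuclear genes switched on by transcription factors such as Nrf1 with coactivators of the PGC-1 family, encoded by Ppargc1a and Ppargc1b, and on Tfam, which packages mitochondrial DNA and starts its transcription. Nrf1 is nuclear respiratory factor 1 here, not the stress factor Nfe2l1 that has shared the name.

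The libraries summed to 25700497 to 27140662 expected counts in WT and 19246119 to 25185697 in FR. In FR, replicate 1 had the lowest total and replicate 2 the highest. Whether any library stood apart from its group was not tested. All 10 genes passed the filter on low counts, with 6.05 to 114 CPM (counts scaled to library size with TMM factors) in single libraries. Of the osteoblast markers, Runx2, Spp1, Col1a1 and Col1a2 were abundant, while Sp7, Alpl, Bglap, Ibsp and Sost stayed under 1 CPM in every library. The summed osteoblast markers, carried mostly by Col1a1 and Col1a2, were at 15600 to 16000 CPM in WT and 4160 to 4200 CPM in FR. Dmp1, also on that list, had 186 to 215 expected counts in WT and 7 to 15 in FR. Summed chondrocyte markers, nearly all Sox9, were at 70.3 to 73.1 CPM in WT and 48.0 to 51.1 CPM in FR, and summed macrophage markers at 6.56 to 7.99 and 10.3 to 12.2 CPM. The macrophage markers went different ways: Csf1r had 12.3 to 21.4 expected counts in WT and 144 to 168 in FR, Cd68 5 to 16 and 45 to 53, and Lyz2 151 to 166 and 32 to 35, while Ptprc and Adgre1 stayed under 1 CPM throughout. Summed endothelial and summed epithelial markers did not exceed 1.13 CPM in any library. Whether these differences have a part in the results was not tested. In such bulk samples, fewer cells of a type and less RNA per cell cannot be told apart.

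Expression of the set differed between FR and WT mainly in 1 gene. Ppargc1a was 4.20-fold higher in FR, and it was the only gene of the 10 that changed at least 2-fold, where 18.8% of the 14889 tested genes did in either direction and 7.40% as a rise. Tfam rose by 31.3%. The other genes moved by less: Mfn2, Dnm1l and Opa1 rose, Mfn1, Mff, Ppargc1b and Fis1 fell, and Nrf1 did not pass the test. In the edgeR quasi-likelihood test with an adjusted p under 0.05, 5 of the 10 genes were higher and 4 lower in FR. Over all tested genes 70.1% passed, 34.6% higher and 35.5% lower, so the number of changed genes in the set is read against a background in which most genes changed. The CPM ranges of WT and FR were separate for 5 genes that were higher and 4 that were lower in FR. Over all tested genes the ranges were separate for 72.4%, with 35.7% higher and 36.6% lower. On the TPM scale (counts scaled to gene length and to library size) Opa1 and Dnm1l overlapped between the groups, as did Nrf1. The share of all tested genes that overlap on the TPM scale was not computed. The median size of the log2 fold change, regardless of sign, was 0.17 in the set and 0.35 over all tested genes. The median signed change was 0.02 in the set.

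**Figure D1:**
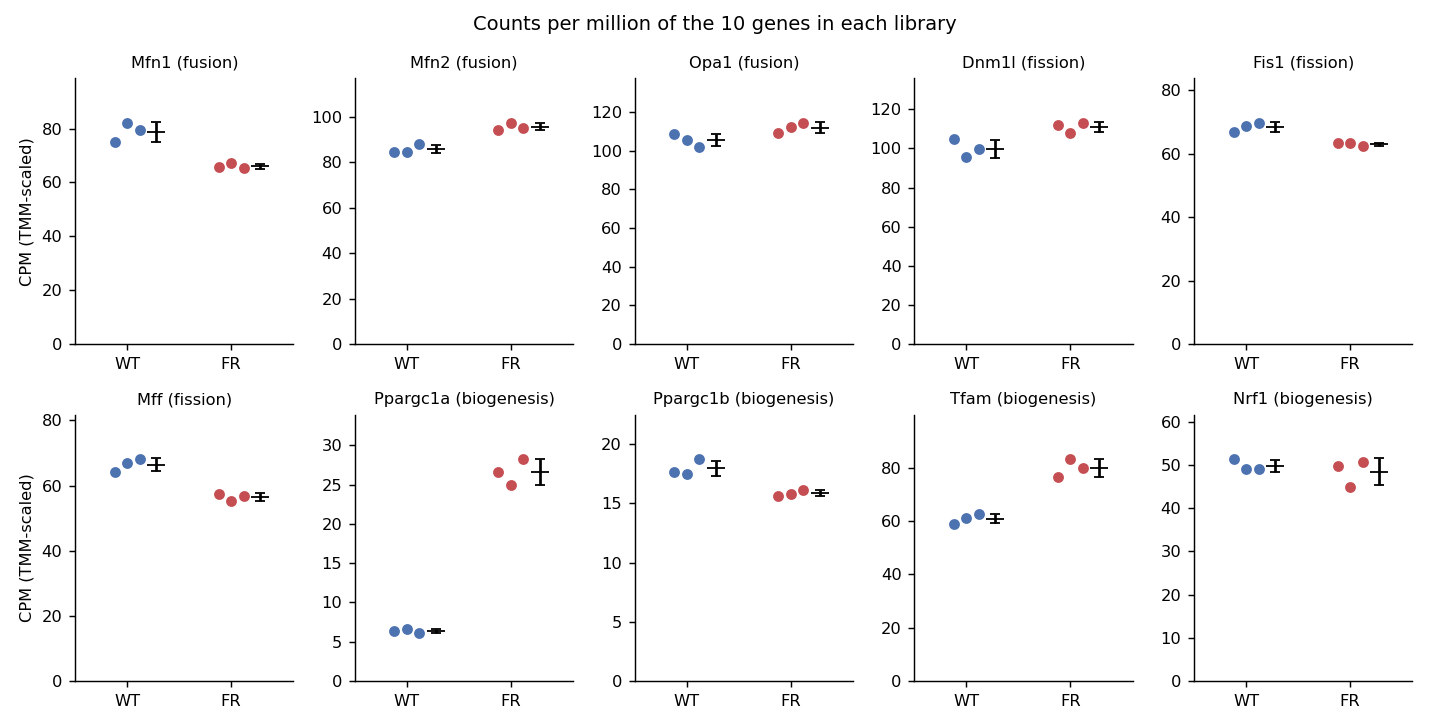
CPM of the 10 genes, with 1 point per library (blue WT, red FR) and the mean and SD of the 3 libraries beside them, each axis starting at 0. Ppargc1a lies at 6.05 to 6.56 CPM in WT and 24.9 to 28.2 CPM in FR, while the Nrf1 libraries of the groups overlap.

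Ppargc1a (ENSMUSG00000029167) encodes PGC-1 alpha, the inducible coactivator that drives mitochondrial gene programmes in muscle, brown fat and liver. It was at 6.34, 6.56 and 6.05 CPM in the WT libraries and at 26.5, 24.9 and 28.2 CPM in the FR libraries. Every FR library lay far above every WT library, and the expected counts behind these values were 155 to 173 in WT and 511 to 624 in FR. The log2 fold change was 2.07 ± 0.08 (SE; 95% interval 1.90 to 2.24; n = 3 each; edgeR adjusted p = 8.70e-19), and 92.7% of all tested genes changed by less. Markers of muscle and of adipocytes were summed, with none specific to brown fat or liver among them. The summed skeletal and smooth muscle markers went from 1.94 to 1.99 CPM in WT to 6.65 to 7.35 CPM in FR, carried mostly by Des, with Myod1 at 0 in every library and Myog at 0 in all but 1. The summed adipocyte markers were at 0.507 to 1.05 CPM in WT and 1.04 to 1.66 CPM in FR, and Lep was at 0 in every library. Their part in the Ppargc1a difference was not tested.

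Ppargc1b (ENSMUSG00000033871), which encodes the related coactivator PGC-1 beta, moved the other way. It was at 17.7, 17.5 and 18.7 CPM in WT and 15.6, 15.8 and 16.2 CPM in FR, so that the groups did not overlap. The log2 fold change was −0.18 ± 0.07 (SE, n = 3 each; edgeR adjusted p = 0.0322). This call ended with DESeq2 (adjusted p = 0.140) and without WT replicate 3 (adjusted p = 0.108), FR replicate 1 (0.0538) or FR replicate 2 (0.0521) in edgeR.

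Within a library, the ratio of 2 genes does not depend on how libraries are scaled. The expected counts of Ppargc1a were 0.359, 0.375 and 0.323 times those of Ppargc1b in WT and 1.70, 1.58 and 1.75 times in FR. Ppargc1a thus had fewer counts than its relative in all WT libraries and more in all FR libraries, and the mean ratio differed 4.75-fold. Ppargc1a is the longer gene in the table, 6464 bases against 3330, and per length it stayed below Ppargc1b in both groups. It made up 15.3% ± 0.984 of the summed TPM of the pair in WT and 46.3% ± 1.31 in FR (SD, n = 3 each). With 3 libraries against 3, the exact two-sided permutation test cannot go below 0.1, and it gave 0.1 for this ratio (0.15 after Benjamini-Hochberg adjustment over the 3 ratios compared).

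Tfam (ENSMUSG00000003923) encodes the mitochondrial transcription factor A. Its level was 59.0, 61.1 and 62.6 CPM in WT and 76.3, 83.1 and 80.0 CPM in FR. The FR libraries were all above the WT libraries, by a log2 fold change of 0.39 ± 0.04 (SE, n = 3 each; edgeR adjusted p = 8.88e-10). Among all tested genes 54.3% changed by less. The share of counts from the 13 mitochondrially encoded protein genes, whose transcription needs Tfam, was 2.60%, 2.60% and 2.58% in WT and 3.35%, 3.57% and 3.31% in FR (exact two-sided permutation p = 0.1, the smallest possible). With these 13 genes left out of the fit, each of the 10 genes kept its direction and its side of the threshold.

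Nrf1 (ENSMUSG00000058440), a transcription factor for respiratory chain and Tfam genes, was at 51.3, 49.0 and 49.0 CPM in WT and 49.7, 44.9 and 50.8 CPM in FR. The groups overlapped, with FR replicate 2 the lowest library. The log2 fold change of −0.04 ± 0.05 (SE, n = 3 each; edgeR adjusted p = 0.441) had a 95% interval from −0.14 to 0.06. Without FR replicate 2 it was 0.0063, so no direction is given.

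Promoter sequences are shown for the 2 biogenesis genes that rose and for Opa1 and Mfn1, whose windows hold motif letters of factors of this pathway. Fis1, which also holds such letters and has more than 1 start, is not shown. Each of the 4 genes shown has 1 RefSeq start in the promoter table. The windows are the 250 bases before it in GRCm38.p6, another build than the GRCm39 of the table, written 5′ to 3′ on the strand of the gene. Capitals mark motif matches. They lie at chr5:51567726-51567975 on the minus strand for Ppargc1a, chr10:71238045-71238294 on the minus strand for Tfam, chr16:29579084-29579333 on the plus strand for Opa1 and chr3:32529232-32529481 on the plus strand for Mfn1.

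Ppargc1a: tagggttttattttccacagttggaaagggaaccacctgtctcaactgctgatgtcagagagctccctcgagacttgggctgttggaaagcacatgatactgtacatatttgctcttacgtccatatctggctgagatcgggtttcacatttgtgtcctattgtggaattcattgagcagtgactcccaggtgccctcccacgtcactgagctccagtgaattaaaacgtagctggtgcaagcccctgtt
Tfam: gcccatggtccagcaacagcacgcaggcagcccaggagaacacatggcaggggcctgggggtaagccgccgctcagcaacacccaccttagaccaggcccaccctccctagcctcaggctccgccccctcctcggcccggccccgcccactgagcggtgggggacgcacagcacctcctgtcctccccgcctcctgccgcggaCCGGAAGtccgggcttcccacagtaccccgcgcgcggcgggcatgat
Opa1: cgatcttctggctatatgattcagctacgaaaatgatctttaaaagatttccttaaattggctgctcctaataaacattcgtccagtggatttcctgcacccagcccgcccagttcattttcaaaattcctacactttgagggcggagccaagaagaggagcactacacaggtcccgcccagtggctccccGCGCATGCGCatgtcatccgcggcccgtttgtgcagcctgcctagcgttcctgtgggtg
Mfn1: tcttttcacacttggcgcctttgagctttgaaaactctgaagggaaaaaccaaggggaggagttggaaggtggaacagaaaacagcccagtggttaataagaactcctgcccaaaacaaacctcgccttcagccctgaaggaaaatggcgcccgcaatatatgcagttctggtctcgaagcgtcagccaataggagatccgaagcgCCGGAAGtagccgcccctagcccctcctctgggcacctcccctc

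The letters of 4 motifs were searched on both strands. They were GCGCANGCG for NRF1, CCGGAAG for the ETS family that includes GABPA, TCAAGGTCA for the estrogen-related receptors and TGACGTCA for CREB. Of the 10 genes, 9 matched the RefSeq promoter table, all but Ppargc1b. Mff, Mfn2, Fis1, Nrf1 and Dnm1l have more than 1 start, and a gene was counted when any of its windows held the letters. The NRF1 letters were in the Opa1 window, where 2 matches on opposite strands overlap from 59 and 58 bases before the start, and in 5.86% of 27025 genes with a window. Tfam, Mfn1 and Fis1 held the ETS letters, 47, 44 and 18 bases before the start, for Fis1 in 1 of its 2 windows, as did 7.83% of all genes. The receptor letters (0.422% of genes) and the CREB letters (1.77% of genes) were in the window of none of the 9, Ppargc1a included. Of the 3 genes with the ETS letters, Tfam rose and Mfn1 and Fis1 fell. A match describes these letters only and shows no binding. Only these exact letters were searched, so a window without a match may still hold a related site.

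The fusion genes split. Mfn1 fell while its relative Mfn2 rose, and Opa1 rose slightly. Mfn1 (ENSMUSG00000027668), a mitofusin of the outer membrane, was at 74.8, 82.2 and 79.6 CPM in WT and 65.6, 67.1 and 65.5 CPM in FR. All FR libraries were below all WT libraries, at a log2 fold change of −0.25 ± 0.04 (SE, n = 3 each; edgeR adjusted p = 1.93e-06). Mfn2 (ENSMUSG00000029020), the mitofusin that also tethers mitochondria to the endoplasmic reticulum, was at 84.8, 84.8 and 88.0 CPM in WT and 94.4, 97.5 and 95.2 CPM in FR. Here the FR libraries were the higher ones, at 0.16 ± 0.03 (SE, n = 3 each; edgeR adjusted p = 0.000204).

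The shift between the mitofusins can also be given within libraries, where scaling plays no part. This ratio uses the same counts as the tests of the genes, so it is not separate support. The ratio of Mfn1 to Mfn2 counts was 0.882, 0.969 and 0.904 in WT and 0.695, 0.689 and 0.688 in FR. The 3 FR ratios lay within a narrow band below all WT ratios, and their mean was 0.752 times that of WT (exact two-sided permutation p = 0.1, the smallest possible; 0.15 adjusted over the 3 ratios). Per gene length Mfn1 stayed the more abundant mitofusin, with 58.8% ± 1.18 of the TPM of the pair in WT and 51.8% ± 0.152 in FR (SD, n = 3 each).

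Opa1 (ENSMUSG00000038084), the inner-membrane GTPase that also holds the cristae together, was at 109, 106 and 102 CPM in WT and 109, 112 and 114 CPM in FR. The gap between the groups was narrow: the highest WT library had 108.5 CPM and the lowest FR library 109.1 CPM. In TPM the groups overlapped, at 64.7 to 70.2 in WT and 67.7 to 70.1 in FR. The log2 fold change was 0.09 ± 0.03 (SE, n = 3 each; edgeR adjusted p = 0.0258). The call ended without WT replicate 2 (adjusted p = 0.109), WT replicate 3 (0.146), FR replicate 2 (0.0768) or FR replicate 3 (0.125), with DESeq2 (0.152) and without a filter on low counts (0.162). The table sums all splice forms of a gene, so the forms of Opa1 and of Dnm1l cannot be separated, and protein cleavage of Opa1 is not seen in RNA.

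The fission genes split as well, with the GTPase slightly higher and the outer-membrane proteins lower in FR. Dnm1l (ENSMUSG00000022789), which encodes the GTPase DRP1 that constricts mitochondria, was at 105, 95.5 and 99.5 CPM in WT and 112, 108 and 113 CPM in FR. In CPM the groups did not overlap, but in TPM they did, at 89.1 to 99.1 in WT and 95.9 to 101.8 in FR. The log2 fold change was 0.15 ± 0.04 (SE, n = 3 each; edgeR adjusted p = 0.000510). Mff (ENSMUSG00000026150), an outer-membrane receptor for DRP1, was at 64.1, 67.1 and 68.0 CPM in WT and 57.5, 55.1 and 56.8 CPM in FR. Each FR library was below each WT library, at −0.23 ± 0.04 (SE, n = 3 each; edgeR adjusted p = 8.63e-06).

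Fis1 (ENSMUSG00000019054), a small outer-membrane protein first known from fission in yeast, was at 66.9, 68.8 and 69.8 CPM in WT and 63.3, 63.4 and 62.5 CPM in FR. It fell by 7.92% without overlap between the groups, a log2 fold change of −0.12 ± 0.04 (SE, n = 3 each; edgeR adjusted p = 0.00704). In the GRCm38 annotation, exons of Dnm1l and Mff overlap genes on the opposite strand, and the labels do not state a stranded count. The gene opposite Dnm1l, Gm49521, had 0 counts in every library, and the gene opposite Mff, C430014B12Rik, had 1.00 to 4.07 counts against 1107 to 1749 for Mff.

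The balance of Dnm1l, which divides mitochondria, and Opa1, which joins inner membranes, did not separate the groups. The ratio of their counts was 0.963, 0.904 and 0.975 in WT and 1.03, 0.962 and 0.989 in FR. FR replicate 2 lay within the WT range, and the exact two-sided permutation p was 0.3.

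**Figure D2:**
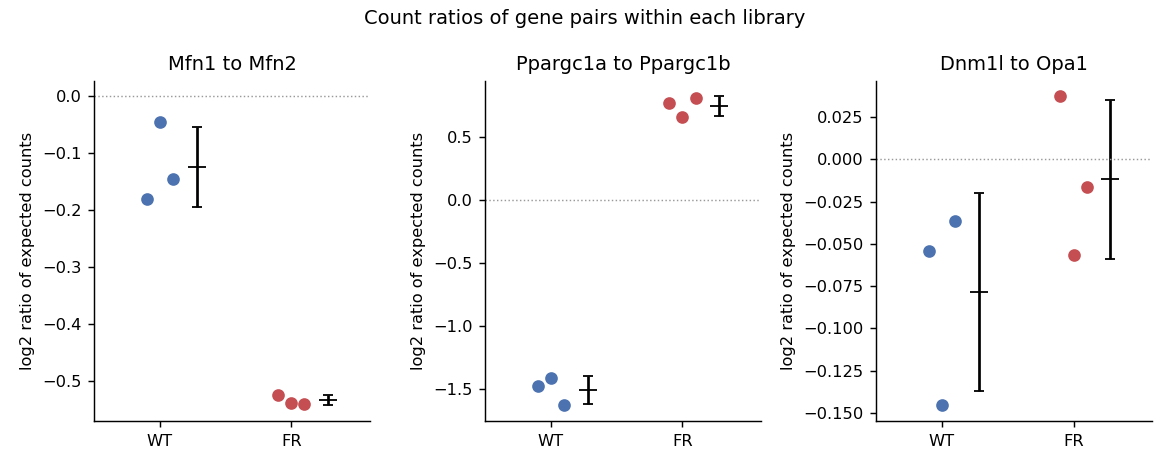
Log2 ratio of expected counts of 2 genes within each library, with 1 point per library and the mean and SD of 3 beside them; the vertical scale differs between panels. Mfn1 to Mfn2 is lower and Ppargc1a to Ppargc1b higher in all FR libraries, while Dnm1l to Opa1 overlaps between the groups.

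Set against each other, the changes in the set were of unequal size. The middle 50% of all tested genes had log2 fold changes between −0.38 and 0.32, and all of the 10 genes except Ppargc1a and Tfam lay inside that range.

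**Figure D3:**
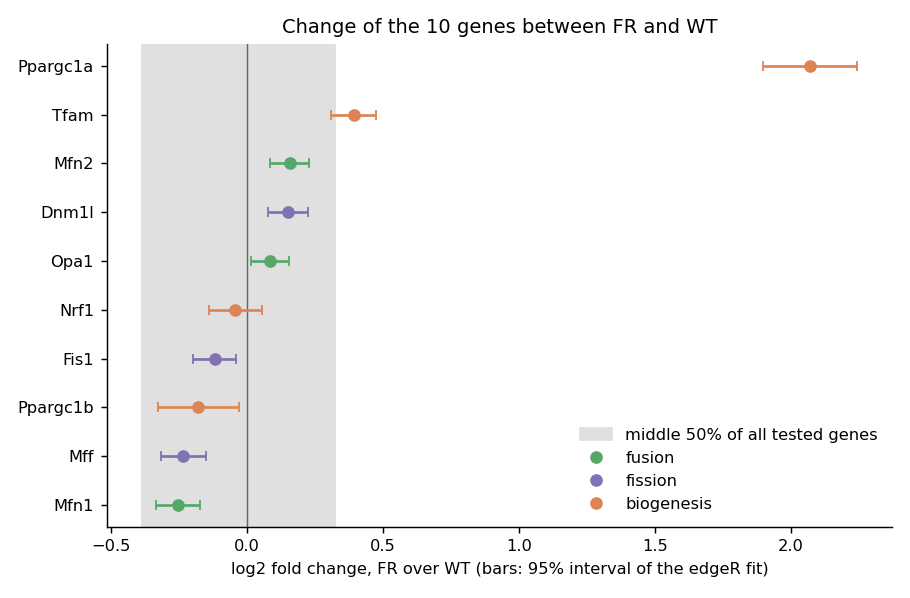
Log2 fold change of each gene, FR over WT, with the 95% interval of the edgeR fit; colours mark the role and the grey band the middle 50% of all tested genes, from −0.38 to 0.32. Ppargc1a at 2.07 and Tfam at 0.39 lie beyond the band.

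Levels can be compared between genes only per length, and TPM from the deposited gene length were used for this. In WT the order from high to low was Fis1 (175.6 TPM), Dnm1l (93.6), Opa1 (67.4), Mff (64.1), Nrf1 (60.5), Mfn1 (57.0), Mfn2 (39.9), Tfam (29.5), Ppargc1b (10.9) and Ppargc1a (1.97). The libraries of Opa1 and Mff, of Mff and Nrf1, and of Nrf1 and Mfn1 overlapped, so the order of these neighbours in WT is not resolved, while the other neighbours were apart. In FR the order differed in 1 place, with Nrf1 (56.5 TPM) before Mff (52.3), and the libraries of these 2 genes overlapped. The coactivator genes were the lowest in both groups. Ppargc1a reached 7.94 TPM in FR, close under Ppargc1b at 9.21 TPM, and Tfam reached 37.0 TPM, under Mfn2 at 42.6 TPM.

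**Figure D4:**
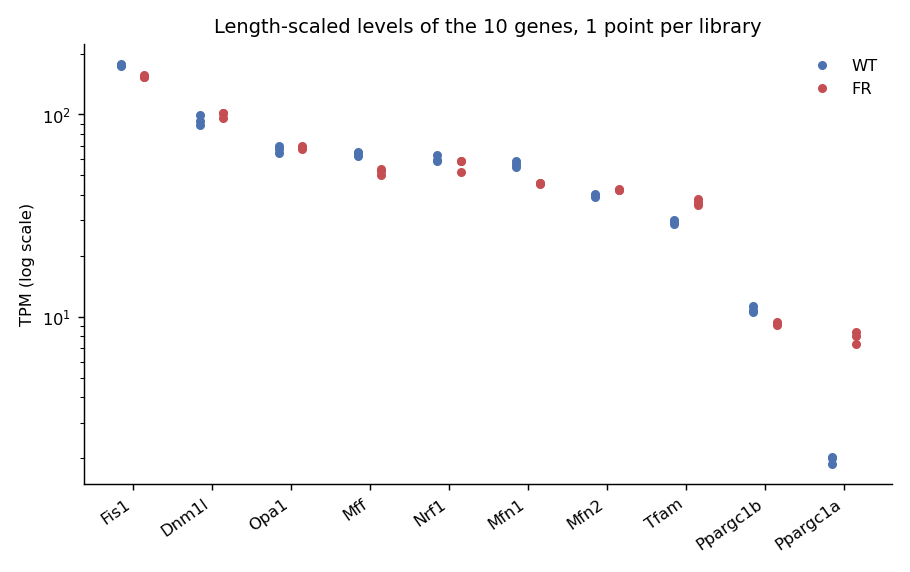
TPM of the 10 genes on a log axis, with 1 point per library (blue WT, red FR), ordered by the WT mean. Levels run from 175.6 TPM for Fis1 to 1.97 TPM for Ppargc1a in WT, and Ppargc1a shows the widest gap between the groups.

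Genes around the set were counted in 8 lists. Of 32 genes of mitochondrial DNA maintenance and transcription, in which Tfam acts, 16 were higher in FR, 3 were lower and 13 missed the threshold. Their median log2 fold change was 0.21. Over all tested genes 34.6% were higher and 35.5% lower, and the median was 0.0029. Lrpprc, which stabilises mitochondrial messenger RNA, rose from 155 ± 4.58 to 252 ± 4.59 CPM (SD, n = 3 each). Its binding partner Slirp fell, from 26.0 ± 0.515 to 19.1 ± 0.671 CPM. Dna2, a nuclease and helicase of both nuclear and mitochondrial DNA, rose from 22.1 ± 0.632 to 49.1 ± 2.57 CPM, and Tfb1m, an enzyme that methylates mitochondrial ribosomal RNA, fell from 7.16 ± 0.761 to 4.98 ± 0.380 CPM. The number lower was 5 without WT replicate 3 and 5 without FR replicate 1.

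Of the 13 mitochondrially encoded protein genes 7 were higher and none lower, with 6 that missed the threshold and a median log2 fold change of 0.27. The share higher was 53.8%, where 34.6% of all tested genes were higher and 35.5% lower. mt-Nd1, a subunit of complex I, rose from 3922 ± 8.05 to 4874 ± 181 CPM, and mt-Co1, of complex IV, from 8992 ± 55.9 to 14012 ± 609 CPM (SD, n = 3 each). The 1 gene past 2-fold was mt-Co3, named after its values were seen. It had 54.9 to 188 CPM in WT and 292 to 345 CPM in FR. The spread within WT was wide. As background, the mitochondrial genome has nuclear copies that can share its reads, and whether they have a part in this spread was not tested. With the 10 most abundant genes left out, some of which belong to this list, 4 were called higher.

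Biogenesis control genes went both ways. Among 32 tested regulators, 14 were higher and 14 lower, and the median log2 fold change was 0.05. These are 43.8% each way, beside 34.6% higher and 35.5% lower over all tested genes. Sirt1, a deacetylase that acts on PGC-1 alpha, fell from 18.9 ± 0.476 to 6.44 ± 0.922 CPM, and Mef2a, a transcription factor that can drive Ppargc1a, fell from 95.3 ± 2.15 to 59.5 ± 4.24 CPM (SD, n = 3 each). Stk11, which encodes the AMPK-activating kinase LKB1, rose from 134 ± 2.81 to 179 ± 2.05 CPM. Hcfc1, a chromatin cofactor known to bind PGC-1 coactivators, rose from 324 ± 6.99 to 449 ± 7.44 CPM. DESeq2 called 9 of these genes lower. Esrrb, Esrrg and Ppara were too low to test.

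The fission adaptors and regulators were divided evenly, 6 of 15 higher and 6 lower, at a median log2 fold change of 0.0014. Each share was 40.0%, near the 34.6% higher and 35.5% lower of all tested genes. Pgam5, a mitochondrial phosphatase that acts on DRP1, rose from 59.7 ± 3.05 to 91.0 ± 3.69 CPM. Akap1, an outer-membrane anchor for protein kinase A, rose from 66.0 ± 2.05 to 91.2 ± 1.21 CPM. Marchf5, a ubiquitin ligase of the outer membrane that acts on DRP1 and mitofusins, fell from 105 ± 4.03 to 69.8 ± 2.85 CPM, and the actin nucleator gene Spire1 from 48.0 ± 1.05 to 31.6 ± 1.15 CPM (SD, n = 3 each).

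Among 21 tested fusion regulators and genes of inner membrane shape, 6 were higher, 6 lower and 9 did not pass, at a median of 0.0085. Each direction held 28.6% of the list, where all tested genes had 34.6% higher and 35.5% lower. Slc25a46, an outer-membrane protein linked to fusion and fission, fell from 58.4 ± 1.14 to 44.6 ± 1.63 CPM, and Apoo, a subunit of the cristae-organising MICOS complex, from 27.4 ± 1.45 to 19.9 ± 1.29 CPM. Samm50, which inserts outer-membrane proteins, rose from 97.4 ± 2.61 to 112 ± 4.55 CPM, and the inner-membrane protease gene Afg3l2 from 89.0 ± 3.36 to 101 ± 5.95 CPM (SD, n = 3 each).

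Of 18 mitophagy genes 8 were higher and 5 lower (median 0.06). As shares these are 44.4% and 27.8%, against 34.6% and 35.5% of all tested genes. Pink1, the kinase that marks damaged mitochondria, fell from 28.1 ± 1.66 to 19.2 ± 1.22 CPM, and Fkbp8, a mitophagy receptor, from 133 ± 5.39 to 109 ± 4.74 CPM. Nipsnap1, a matrix protein that can recruit autophagy receptors, rose from 15.7 ± 0.179 to 47.8 ± 2.55 CPM and was the only gene of this list past 2-fold, and the autophagy receptor gene Nbr1 rose from 113 ± 1.33 to 141 ± 5.76 CPM (SD, n = 3 each).

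Mitochondrial motility was covered by 9 tested genes, 4 higher and 2 lower (median 0.07). That makes 44.4% higher and 22.2% lower, against 34.6% and 35.5% of all tested genes. Kif1b, a kinesin that carries mitochondria, rose from 107 ± 2.84 to 160 ± 4.24 CPM, and Armc10 from 28.6 ± 0.954 to 38.6 ± 3.32 CPM. Its relatives Armcx1 and Armcx3, outer-membrane proteins that help mitochondrial transport, fell, Armcx1 from 40.3 ± 0.302 to 19.6 ± 0.391 CPM and Armcx3 from 106 ± 2.79 to 70.1 ± 5.39 CPM (SD, n = 3 each).

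For protein import and chaperones 14 of 29 genes were higher and 8 lower (median 0.05). In shares, 48.3% were higher and 27.6% lower, against 34.6% and 35.5% of all tested genes. Timm23, the channel of the inner-membrane translocase, rose from 156 ± 6.60 to 219 ± 4.91 CPM, and the matrix chaperone gene Hspd1 from 847 ± 13.6 to 1016 ± 17.0 CPM. Timm17b, a further subunit of that translocase, fell from 25.6 ± 1.09 to 17.9 ± 0.941 CPM, and Tomm20, an outer-membrane receptor, from 301 ± 10.2 to 246 ± 9.43 CPM (SD, n = 3 each). Each list gene given here as risen or fallen had an edgeR adjusted p of 0.000552 or smaller.

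**Figure D5:**
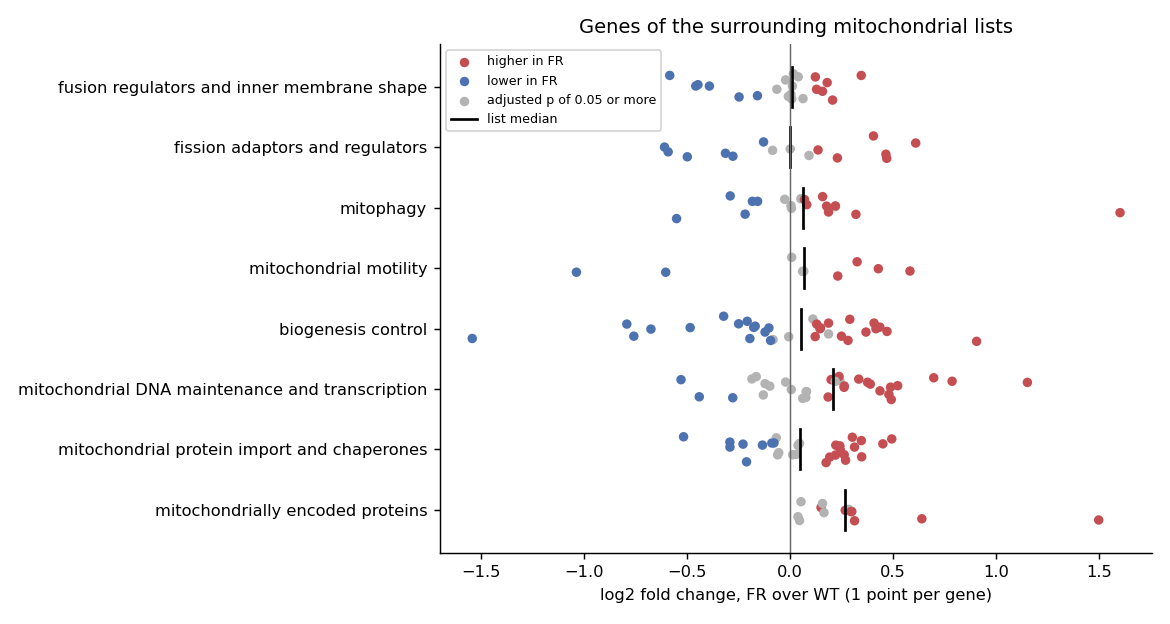
Log2 fold change, FR over WT, of every tested gene in the 8 lists, with the list median as a black bar; red points are higher and blue points lower in FR at an adjusted p under 0.05, grey points did not pass. The medians of mitochondrial DNA maintenance (0.21) and mitochondrially encoded genes (0.27) lie right of those of the other lists.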

How the data were processed

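RNA was measured in 3 WT and 3 FR libraries of MC3T3-E1 cells, prepared by poly(A) selection per the labels' protocols. Per the submitters' processing notes, fastp, HISAT and RSEM were used with GRCm39. The table that the authors deposited gives expected counts for each gene, unscaled, with a gene length per the file headers, and 85.9% of its values, zeros included, were exactly whole. RSEM shares reads that fit several genes by estimation. Counts were rounded, filtered with filterByExpr and scaled with TMM. The test of FR against WT was edgeR's quasi-likelihood F-test in its robust form (edgeR 4.0.16, R 4.3.3), with Benjamini-Hochberg adjustment over 14889 genes and a threshold of 0.05. Intervals and counts cover the spread of these libraries only, and 3 counts correspond to 0.110 to 0.156 CPM. TPM used the deposited length, whose definition is not given in the sources used here. Libraries within a group differed 2.34 to 3.37 times more than sampling noise (by chi-square), so none was a copy.

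The 10 genes, the 8 lists and the tests were chosen with earlier results of these data known. All 10 genes are named, and from each list the 2 genes with the smallest adjusted p in each direction and a mean of at least 5 CPM in a group. The steps were tested on simulated counts of 14685 genes, where 52% of genes changed 1.2-fold and 82% of those changed 2-fold were called. Only 50 genes were changed at each of these folds, while 70.1% of tested genes were called in the data. The adjustment depends on how many genes change, so the simulated rates do not carry over to the data. Alternatives were other scalings and filters, a fit that is not robust, a replicate block, DESeq2 1.42.0, limma-voom (limma 3.58.1) and each library left out. Figures were drawn with matplotlib 3.10.9.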

Additional observations from a re-analysis of the deposited data

How the results depend on the processing

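Across 16 alternatives, Mfn1, Mfn2, Dnm1l, Fis1, Mff, Ppargc1a and Tfam kept their direction and stayed past the threshold. Ppargc1a ranged from 2.02 to 2.11 and Tfam from 0.35 to 0.41 in log2 fold change. Opa1 was called in 10 and Ppargc1b in 12 of the 16. Opa1 was no longer called at 0.063 without a filter and 0.078 with DESeq2, and with 1 library left out it ranged from 0.062 to 0.095. Ppargc1b was no longer called at −0.19 with DESeq2 and ranged from −0.21 to −0.15 with 1 library left out. Nrf1 turned to 0.0063 without FR replicate 2 and ranged from there to −0.082 with 1 library left out. Biogenesis control genes called lower numbered 9 with DESeq2, against 14. Mitochondrially encoded genes called higher numbered 4 with the 10 most abundant genes left out, against 7, where fewer genes of the list were tested. Genes of mitochondrial DNA maintenance called lower numbered 3 to 5 with 1 library left out. The cause of the other differences was not tested.

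With the replicate block, 10292 genes were called against 10440, and Opa1 stayed called at 0.09 (adjusted p = 0.0325), as did Ppargc1b at −0.18 (adjusted p = 0.0427). The block changed no call among the 10 genes. Deviations of same-numbered libraries correlated at −0.0166, −0.0039 and −0.0280, and those of differently numbered libraries at −0.02 to 0.0368. With 3 libraries per group, this cannot show whether same-numbered libraries share a batch. No scaling moved the median of all genes by over 0.1. At these depths the 95% interval of Nrf1 (−0.14 to 0.06) limits what could be seen.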
